A study of Mus musculus with 16 samples.

Results

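Apob, Mttp, Apoa1, Apoa4, Apoc3 and Apoc2 encode the proteins that build and coat the chylomicron. They were read by gene symbol from the deposited table of mouse small intestine, where all 6 were present among 20072 genes and all 6 passed the filter on low values. The series set enterochromaffin (EC) cells, the serotonin-secreting endocrine cells of the gut lining, against the remaining epithelial cells of crypts and villi, and its title names the somatostatin control of EC cells. The mice were untreated Tph1-CFP animals of 8 to 16 weeks, in which a cyan fluorescent protein (CFP) reports Tph1, the gene of the enzyme that starts serotonin synthesis. Whole small intestines were separated into a villus and a crypt fraction and sorted by CFP fluorescence, 5000 cells going into each RNA-seq library of amplified full-length cDNA. The 4 groups were CFP-positive villus cells (villus EC), CFP-negative villus cells (villus epi), CFP-positive crypt cells (crypt EC) and CFP-negative crypt cells (crypt epi), with 4 libraries each. All groups carried the same reporter, and the epi groups hold every kind of CFP-negative epithelial cell rather than one cell type. The labels do not say which library came from which mouse, so p-values here measure the spread between libraries.

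Absorptive enterocytes of the villus package dietary fat into chylomicrons. Apolipoprotein B is the scaffold, onto which the microsomal triglyceride transfer protein (Mttp) loads lipid in the endoplasmic reticulum, and the smaller apolipoproteins A-I, A-IV, C-II and C-III ride on the particle surface. The liver uses much of the same machinery, and crypts, where epithelial cells are born and divide, are not the main site of fat absorption.

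The gene values are FPKM, sequenced fragments for each kilobase of transcript with a scaling per library. Levels are therefore set side by side between genes here. The part of transcript length or cDNA amplification in such orders and shares was not tested. Column totals ran from 731415 to 1415120, read depth was not given, and an FPKM value carries no counting interval here. EC marker genes summed to 84739 to 124741 FPKM in villus EC against 620 to 749 in villus epi, and to 87348 to 109551 in crypt EC against 1435 to 1976 in crypt epi. A set of 16 enterocyte markers without lipid genes summed to 788 to 1024 FPKM in villus EC against 14811 to 18049 in villus epi, and to 419 to 591 in crypt EC against 1128 to 2464 in crypt epi. One library stood apart. Villus epi replicate 2 correlated across genes with the rest of its group at a mean of 0.846, against 0.937 to 0.990 for the other 15 libraries, and its summed stroma and endothelium markers reached 160.4 FPKM where the other 3 villus epi libraries had 5.71 to 7.23. Of that sum Dcn alone gave 130.3 FPKM, against 1.46 or less in the other 3. The collagen genes Col1a1, Col1a2 and Col3a1 were each at 2.27 FPKM or less in every villus epi library. Results that rest on this library are given with and without it. Tests are from limma on log2(FPKM + 1) across all 14089 genes that passed the filter, with Benjamini-Hochberg adjusted p-values and a call below 0.05.

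Apoa1, Apoc3 and Apoa4 lie side by side on mouse chromosome 9 with Apoa5, in a cluster of 43.34 kb (mm10, GENCODE annotation). Apoa1 (ENSMUSG00000032083) spans chr9:46228580-46230466 on the plus strand, Apoc3 (ENSMUSG00000032081) chr9:46232933-46235636 on the minus strand and Apoa4 (ENSMUSG00000032080) chr9:46240696-46243459 on the plus strand. Apoc2 (ENSMUSG00000002992, chr7:19671579-19677941, minus strand) ends a cluster of 27.61 kb with Apoe, Apoc1 and Apoc4. Apob (ENSMUSG00000020609, chr12:7977648-8016835, plus strand) and Mttp (ENSMUSG00000028158, chr3:138089854-138144968, minus strand) stand alone. The longest coding transcript is 13934 bases for Apob and 3963 for Mttp, against 1815 for Apoa4, 1035 for Apoa1, 727 for Apoc2 and 709 for Apoc3.

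The 6 genes start from separate promoters and were all lower in villus EC. The stretch before each start is therefore shown where RefSeq (GRCm38.p6) gave one clear of annotated exons of coding genes. The Apoc2 stretch lies inside the span of Gm44805 (chr7:19671584-19681423), a coding gene on the same strand. Of the 6, 5 matched the promoter table. Positions count back from the RefSeq start at 0, and capitals mark matches to a motif searched on both strands.
Apoa1 (chr9:46228380-46228579, plus strand): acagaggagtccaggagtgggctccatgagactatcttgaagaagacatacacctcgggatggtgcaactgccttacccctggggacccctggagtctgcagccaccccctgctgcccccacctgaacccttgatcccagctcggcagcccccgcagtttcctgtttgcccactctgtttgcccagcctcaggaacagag
Apoa4 (chr9:46240594-46240695, plus strand): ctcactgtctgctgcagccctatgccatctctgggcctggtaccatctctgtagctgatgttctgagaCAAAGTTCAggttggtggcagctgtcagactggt
Apob (chr12:7977427-7977647, plus strand): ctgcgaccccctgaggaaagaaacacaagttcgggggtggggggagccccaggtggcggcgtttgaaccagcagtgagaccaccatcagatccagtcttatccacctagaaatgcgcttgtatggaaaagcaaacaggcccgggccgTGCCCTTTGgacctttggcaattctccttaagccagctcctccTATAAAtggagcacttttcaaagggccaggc
Apoc2 (chr7:19677942-19678082, minus strand): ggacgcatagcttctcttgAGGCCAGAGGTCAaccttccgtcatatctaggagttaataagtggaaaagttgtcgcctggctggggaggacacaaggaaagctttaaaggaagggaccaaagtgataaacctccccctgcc
The search covered 4 motifs, with the share of all 32851 promoters that hold them in the 250 bases before the start. TATAAA, the TATA box, was in 12.4% of promoters and lay at -60 to -55 in Apob. CAAAGNNCA, a short form of the element bound by HNF4 factors, was in 5.49% and lay at -182 to -174 in Apoa4 and, as TGCCCTTTG on the other strand, at -103 to -95 in Apob. AGGNCA written 2 times with 1 base between, the direct repeat that nuclear receptors bind, was in 0.338% and lay at -122 to -110 in Apoc2. AGATAA, bound by GATA factors, was in 9.99% and was in none of the stretches shown, and the Apoa1 stretch held none of the 4 motifs. These matches describe letters and not bound sites.

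Apob, the scaffold, was lower in villus EC than in 3 of the 4 villus epi libraries. Its values were 162, 168, 175 and 180.4 FPKM in villus EC (replicates 1 to 4, as in every list of 4 values here) against 1524, 53.7, 1276 and 1175 in villus epi. Villus epi replicate 2 was below every villus EC library, so the groups overlap, while the other 3 were far above them. Means were 171 ± 8.17 FPKM in villus EC and 1007 ± 652 in villus epi (SD, n = 4 each), and 1325 ± 179 in villus epi without replicate 2 (n = 3). The log2 fold change was -1.79 ± 0.75 (SE) with an adjusted p of 0.0495 from limma, and -2.94 ± 0.17 with 3.47e-10 without replicate 2. With all 16 libraries the call sat at the threshold, and it was lost in 15 of 16 fits that left out 1 library, with adjusted p from 0.0578 to 0.151 in those 15. In these bulk libraries fewer cells of a type and less RNA per cell cannot be told apart, here and in every comparison that follows.

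In the crypt Apob did not separate EC from epi. Values were 61.5, 92.0, 88.3 and 85.4 FPKM in crypt EC against 112, 109, 65.5 and 87.3 in crypt epi. The groups overlapped, with means of 81.8 ± 13.8 and 93.5 ± 21.7 FPKM for crypt EC and crypt epi (SD, n = 4 each). The log2 fold change of -0.18 ± 0.75 did not pass (adjusted p = 0.875, limma), and it was 0.36 when each library was scaled to the same total. All villus EC libraries were above all crypt EC libraries, by 1.07 ± 0.75 on the log2 scale with an adjusted p of 0.354, and by 1.07 ± 0.16 with 5.04e-05 without villus epi replicate 2, whose spread enters every contrast of the fit. Villus epi against crypt epi gave 2.69 ± 0.75 (adjusted p = 0.00667, limma), although villus epi replicate 2 lay below every crypt epi library, and 3.83 ± 0.17 (2.74e-11) without it. The call was lost when only the compared groups were fitted (0.0590). It was also lost with a block for the library number, the number that ends each deposited column name (0.0901).

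Mttp, which loads triglyceride onto apolipoprotein B, was lower in EC than in epi at both sites. Values were 12.7, 23.3, 15.7 and 10.5 FPKM in villus EC against 1302, 390.1, 1364 and 1289 in villus epi. Crypt EC had 25.4, 28.6, 20.2 and 20.8 FPKM against 291, 266, 193 and 264 in crypt epi. No EC library reached any epi library at either site. Mttp gave a log2 fold change of -5.94 ± 0.34 in the villus (adjusted p = 6.96e-10, limma) and -3.36 ± 0.34 in the crypt (1.06e-06).
Between sites, Mttp in epi rose toward the villus by 1.95 ± 0.34 on the log2 scale (adjusted p = 0.000167). In EC the value was -0.62 ± 0.34 and did not pass (adjusted p = 0.217), and it was called lower in villus EC than in crypt EC without villus epi replicate 2 (0.014). Of the 6 genes, Mttp was the one whose mean was lower in villus EC, at 15.5 ± 5.58 FPKM, than in crypt EC, at 23.7 ± 4.01 (SD, n = 4 each), with replicate 2 of villus EC inside the crypt EC range.

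Apoa1, the main protein of high-density lipoprotein and an abundant chylomicron surface protein, had the highest mean level of the 6 in all 4 groups. Values were 781, 1116, 1047 and 1269 FPKM in villus EC against 52257, 16898, 64408 and 62306 in villus epi. Crypt EC had 115, 509, 532 and 509 FPKM against 1932, 1869.8, 428 and 2039 in crypt epi. In the villus every EC library was below every epi library, while in the crypt epi replicate 3 fell below 3 of the 4 EC libraries and crypt EC replicate 1 was far below the rest of its group.
For Apoa1 the log2 fold change was -5.38 ± 0.58 in the villus (adjusted p = 8.53e-07, limma) and -1.91 ± 0.58 in the crypt (0.0147). The crypt call was lost without crypt EC replicate 1, at -1.37 with an adjusted p of 0.0521, and the exact permutation p of the crypt comparison was 0.114. Villus against crypt gave 5.02 ± 0.58 in epi (2.5e-06) and 1.54 ± 0.58 in EC, which did not pass with all libraries (0.0642) and did without villus epi replicate 2 (0.0202).

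Apoa4, a surface apolipoprotein that the mouse small intestine makes in response to fat, had the largest villus difference of the 6. Values were 30.1, 130.4, 108 and 37.6 FPKM in villus EC against 12536, 3364, 14270.5 and 13192 in villus epi. Crypt EC had 7.98, 19.9, 14.6 and 10.4 FPKM against 216, 176, 58.4 and 187 in crypt epi. Both EC groups lay wholly below the epi group of their site, including the low libraries villus epi replicate 2 and crypt epi replicate 3.
Apoa4 had a log2 fold change of -7.20 ± 0.57 in the villus (adjusted p = 2.29e-08, limma) and -3.42 ± 0.57 in the crypt (0.000149). It rose toward the villus in both cell types, by 2.25 ± 0.57 in EC (0.00756) and 6.03 ± 0.57 in epi (2.53e-07).

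Apoc3, which slows lipoprotein clearance by inhibiting lipoprotein lipase and remnant uptake, was far below villus epi in villus EC, and its groups were not separated in the crypt. Values were 192, 281, 278 and 354 FPKM in villus EC against 11839, 9539, 15310.3 and 15020 in villus epi. Crypt EC had 83.3, 157, 165 and 159 FPKM against 227, 209.8, 83.9 and 212 in crypt epi. The villus groups were wide apart, and the crypt groups overlapped through epi replicate 3. The log2 fold change was -5.55 ± 0.31 in the villus (adjusted p = 5.35e-10, limma) and -0.32 ± 0.31 in the crypt, which did not pass (0.439) and was 0.22 when each library was scaled to the same total.
In EC, Apoc3 rose toward the villus by 0.98 ± 0.31 (adjusted p = 0.0293). This call was lost without crypt EC replicate 1 (log2 fold change 0.75, adjusted p = 0.110), villus EC replicate 2 (0.0665), villus EC replicate 3 (0.0651) or villus EC replicate 4 (0.0894). In epi the rise was 6.21 ± 0.31 (2.77e-10).

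Apoc2, the cofactor that activates lipoprotein lipase, was the one gene of the 6 that stood highest in villus epi replicate 2. Values were 90.5, 174, 143 and 174 FPKM in villus EC against 7621, 17282, 10713 and 10661 in villus epi. Crypt EC had 12.6, 40.7, 53.1 and 42.1 FPKM against 155, 130.5, 69.0 and 138 in crypt epi. No EC library reached an epi library of its site, and crypt EC replicate 1 and crypt epi replicate 3 were again the lowest of their groups. The log2 fold change was -6.29 ± 0.40 in the villus (adjusted p = 1.84e-09, limma) and -1.81 ± 0.40 in the crypt (0.0016), and villus against crypt gave 2.06 ± 0.40 in EC (0.00105) and 6.54 ± 0.40 in epi (2.07e-09). A coding gene on the same strand, Apoc2l, overlaps Apoc2 and was listed at 4.41 to 7.10 FPKM in villus epi and at 0.960 or less in the other groups, so the split of reads between both is uncertain.

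**Figure D1:**
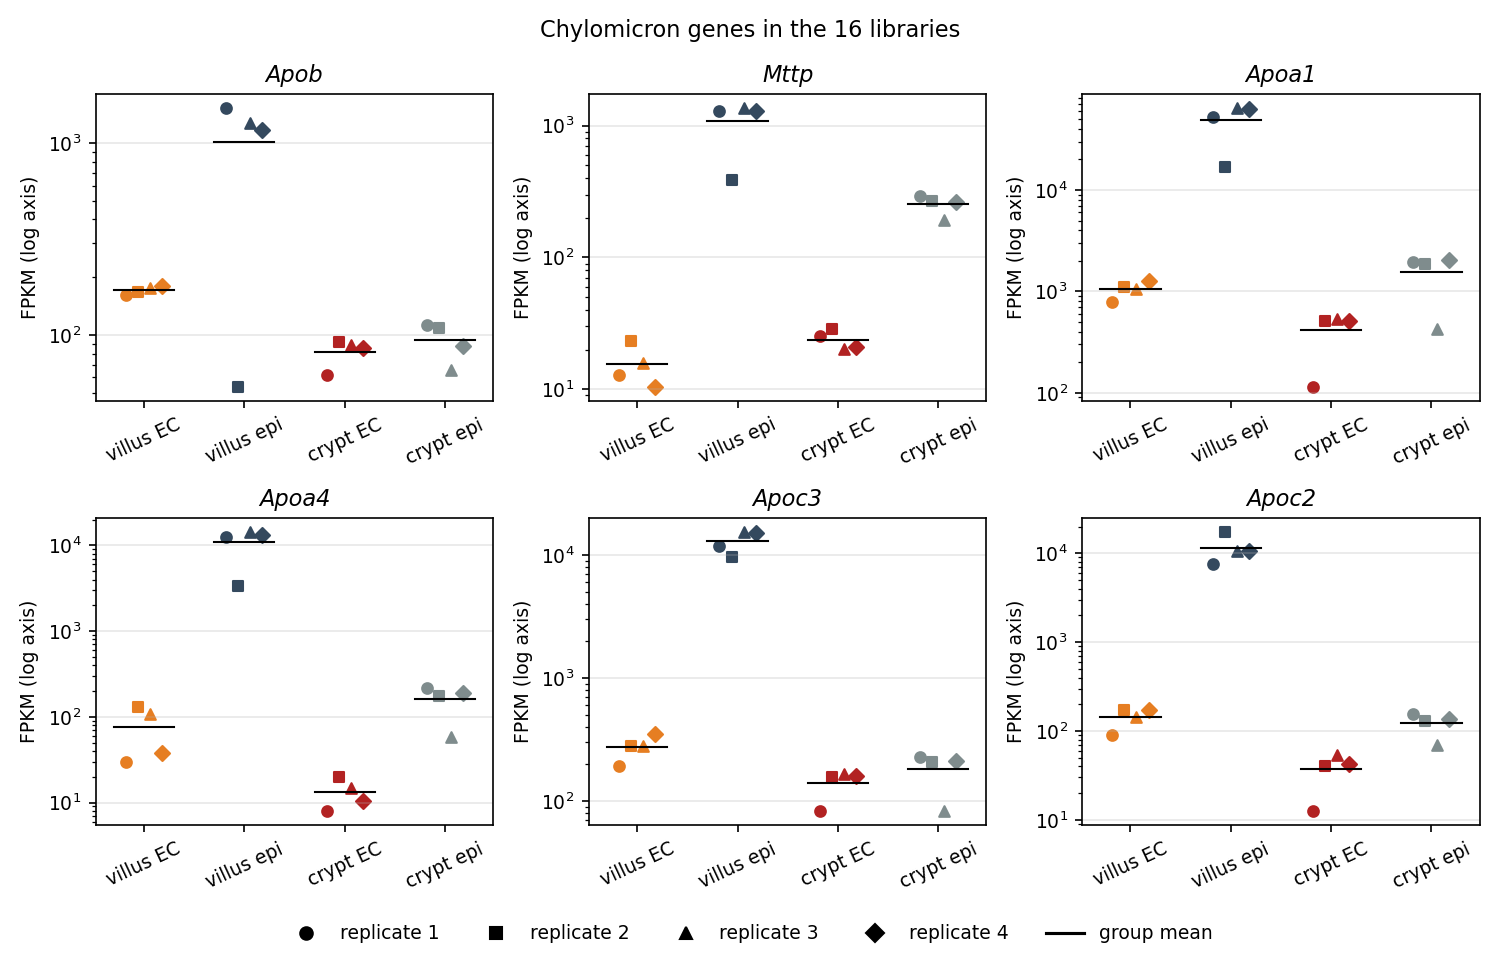
FPKM of the 6 genes in each library on a log axis, by group from villus EC to crypt epi, with markers by replicate and a line at the group mean. Villus epi is highest for every gene apart from the low Apob value of replicate 2 (53.7 FPKM), and Apoa1 tops the other 5 genes in each group mean.

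Counted together, villus EC showed lower levels of all 6 genes than villus epi, a call that 21.6% of all tested genes shared. Mitochondrial genes held 2.23% to 2.48% of the library total in villus EC against 10.9% to 14.9% in 3 villus epi libraries and 5.26% in replicate 2, and 2.95% to 4.32% in crypt EC against 3.24% to 4.08% in crypt epi. The part of this difference in the villus calls was not tested. Without villus epi replicate 2 it was also all 6, against 26.5%. In the crypt 4 of 6 were lower in EC, all but Apob and Apoc3, against 20% of all tested genes. The median log2 fold change of the 6 was -5.74 in the villus and -1.86 in the crypt, where the medians of all tested genes were 0.33 and 0.05. The direction of the villus differences and of the 4 crypt calls was the same under both other scalings of the libraries. Of all genes called, the share higher in EC was 65.27% in the villus and 53.61% in the crypt, and 80.7% and 81% when each library was scaled to the same total.

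Toward the villus, 3 of 6 genes rose in EC (Apoa4, Apoc2 and Apoc3), against 10.3% of all tested genes, and all 6 rose in epi, against 19.6%. The medians of the 6 were 1.31 in EC and 5.53 in epi, with -0.05 and -0.19 over all tested genes. Without villus epi replicate 2 the EC count was 5 higher and 1 lower (Mttp), against 19.3% and 27.6% of tested genes. The difference between EC and epi was larger in the villus than in the crypt for 5 of 6 genes by the interaction test, where 16% of tested genes were called in that direction. The interaction was -5.23 ± 0.44 for Apoc3 (adjusted p = 2.95e-07, limma), -4.48 ± 0.56 for Apoc2 (1.35e-05), -3.78 ± 0.80 for Apoa4 (0.00135), -3.48 ± 0.82 for Apoa1 (0.00304) and -2.58 ± 0.48 for Mttp (0.000525). For Apob it was -1.61 ± 1.06 (adjusted p = 0.241) with all libraries. Without villus epi replicate 2 it was -2.76 ± 0.23 (8.79e-08), which made 6 of 6 called, against 24.1% of tested genes.

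**Figure D2:**
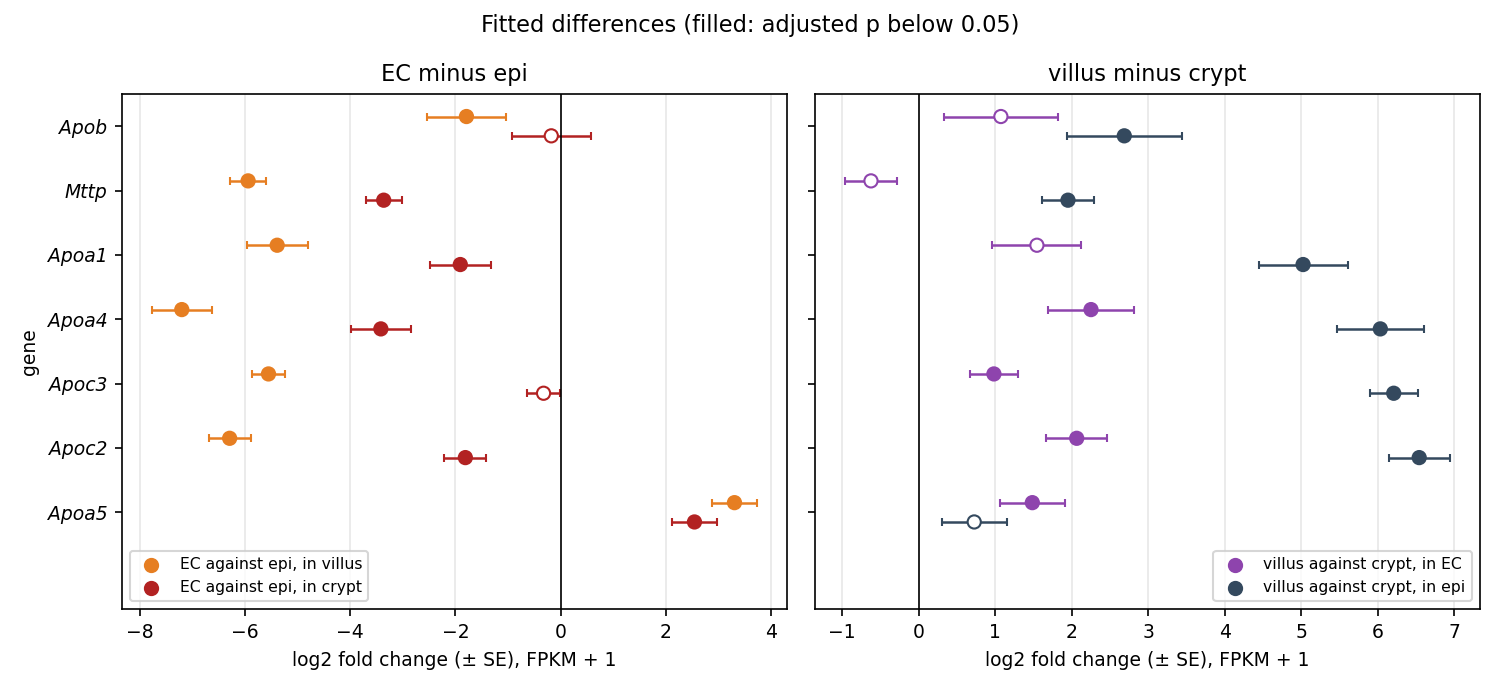
Log2 fold changes with their SE for the 6 genes and Apoa5 in the comparisons of EC with epi and of villus with crypt. Filled points passed an adjusted p of 0.05. All 6 genes lie left of 0 in the villus comparison, from -7.20 for Apoa4 to -1.79 for Apob, while Apoa5 lies right of 0 at 3.30.

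Groups were also compared by whether their libraries overlapped. No overlap was seen for 5 of 6 genes between villus EC and villus epi (17.8% of tested genes in that direction), 3 of 6 between crypt EC and crypt epi (28.3%), 5 of 6 between villus EC and crypt EC (19%) and 5 of 6 between villus epi and crypt epi (16.6%). In the crypt, 3 of 6 is not far above the share of all genes. An exact permutation test, two-sided, of each gene on its own 8 libraries gave p = 0.0286, the smallest that 4 against 4 allows, in 18 of 24 comparisons. The other 6 were Apob in the villus (0.143), Apob (0.486), Apoc3 (0.457) and Apoa1 (0.114) in the crypt, Mttp between sites in EC (0.0857) and Apob between sites in epi (0.143).

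The order of levels differed between the groups. In villus EC it was Apoa1, Apoc3, Apob, Apoc2, Apoa4 and Mttp, and in villus epi Apoa1, Apoc3, Apoc2, Apoa4, Mttp and Apob by group means. Without replicate 2 of villus epi, Apoa4 at 13333 FPKM stood above Apoc2 at 9665, and Apob at 1325 was next to Mttp at 1318. Crypt EC followed the order Apoa1, Apoc3, Apob, Apoc2, Mttp and Apoa4, whereas crypt epi had Mttp second, at 254 ± 42.0 FPKM (SD, n = 4), behind Apoa1 at 1567 ± 762. Across groups, each gene was highest in villus epi. Villus EC came next for Apob, Apoc3 and Apoc2 and crypt epi for Apoa1, Apoa4 and Mttp. The libraries of villus EC and crypt epi overlapped for Apoa1, Apoa4, Apoc2 and Apoc3, so their place in that order is not settled, while for Apob all villus EC libraries were above all crypt epi libraries.

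The 6 genes together made up 0.158% to 0.229% of the library total in villus EC against 3.99% to 7.59% in villus epi, and 0.0418% to 0.114% in crypt EC against 0.0860% to 0.266% in crypt epi. Apoa1 alone held 59.0% to 62.6% of the 6-gene sum in villus EC. The share of Apob in that sum was 8.89% to 12.7% in villus EC against 0.113% to 1.75% in villus epi, and 10.1% to 20.1% in crypt EC against 2.98% to 7.29% in crypt epi. Apob was thus a larger part of the sum in both EC groups, and the sum was much smaller in villus EC than in villus epi. In the crypt the sum was 306 to 874 FPKM in EC against 899 to 2934 in epi, and its shares of the library total overlapped.

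Levels in EC were next set against the epi mean of the same site, beside the 16 enterocyte markers measured the same way. Villus EC held 0.705% of the villus epi level for Apoa4, 1.26% for Apoc2, 1.43% for Mttp, 2.14% for Apoc3 and 2.15% for Apoa1, within the range of the markers, whose median was 0.868% and whose extremes were Lct at 0.329% and Sis at 115%. Apob was at 17.0%, also inside this wide range, with Sis and Xpnpep2 (35.5%) above it. The median of the 6 genes was 1.78%. Without villus epi replicate 2 Apob was at 12.9%, Sis at 92.9%, Slc15a1 at 20.6% rather than 9.05%, and the marker median at 0.700%. In the crypt the EC level was 8.28% for Apoa4, 9.36% for Mttp, 26.6% for Apoa1, 30.1% for Apoc2, 77.0% for Apoc3 and 87.4% for Apob, with markers from 3.49% (Enpep) to 130% (Dpp4) and a median of 10.5%. Lct and Sis encode brush-border disaccharidases, and Enpep and Dpp4 brush-border peptidases. Of the 16 markers, 14 were called lower in EC in the villus and 10 in the crypt, with 0 higher at either site. Among all tested genes the lower shares were 21.6% and 20%, and the higher shares 40.6% and 23.2%. Whether enterocytes or their RNA in the EC gate contribute to the EC values was not tested.

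**Figure D3:**
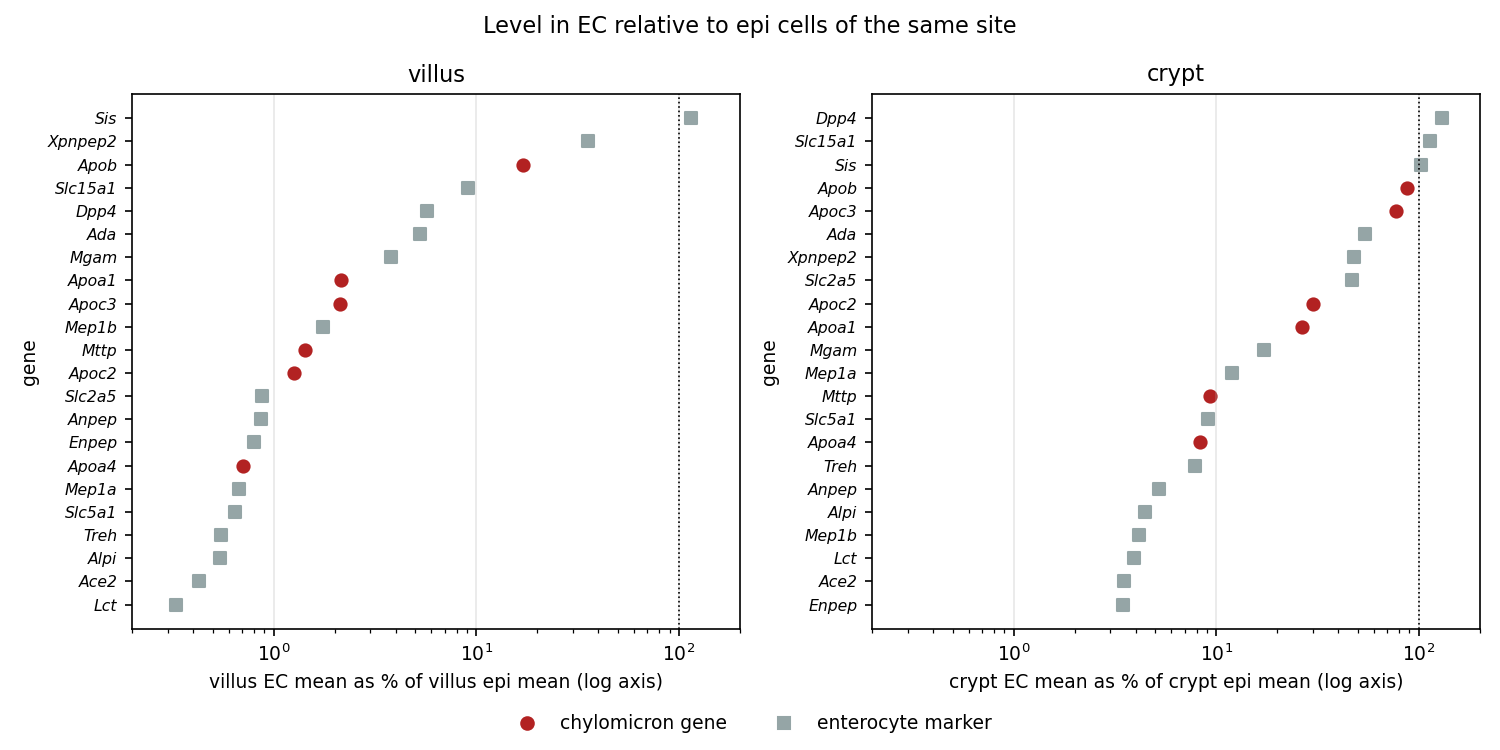
Mean level in EC as a percent of the mean in epi at the same site, on a log axis, for the 6 genes (circles) and 16 enterocyte markers (squares), with a dotted line at 100. In the villus 5 of the 6 genes lie between 0.705% and 2.15% and Apob at 17.0%. In the crypt they spread from 8.28% to 87.4%.

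The balance of scaffold and transfer protein differed between cell types. The ratio of Apob to Mttp FPKM was 12.7, 7.23, 11.1 and 17.2 in villus EC against 1.17, 0.138, 0.936 and 0.912 in villus epi. In the crypt it was 2.42, 3.21, 4.38 and 4.11 in crypt EC against 0.386, 0.410, 0.339 and 0.330 in crypt epi. Every EC library had more Apob than Mttp, and every epi library but villus epi replicate 1 had less. The difference of mean log2 ratios was 4.24 in the villus and 3.24 in the crypt, each with an exact permutation p of 0.0286 (two-sided), adjusted to 0.0476 over the 60 ratio tests made.
Apoa1 to Apob ran the other way, at 4.83 to 7.03 in villus EC against 34.3 to 314 in villus epi and 1.87 to 6.03 in crypt EC against 6.54 to 23.4 in crypt epi. Apoa1 to Apoa4 was 8.55 to 33.8 in villus EC against 4.17 to 5.02 in villus epi, and 14.4 to 48.8 in crypt EC against 7.33 to 10.9 in crypt epi. The groups of these pairs did not overlap at either site, and each of the 4 exact permutation tests gave an adjusted p of 0.0476, so Apoa4 lay further below its epi level than Apoa1 did in both EC groups.
A ratio of 2 genes within a library is free of the scaling between libraries. Apoa1 to Apoc3, both from the chromosome 9 cluster, differed by 0.17 in mean log2 between villus EC and villus epi, which did not pass (exact p = 1), and by -1.58 in the crypt, which did (exact permutation, adjusted p = 0.0476). The villus value rests on villus epi replicate 2, with a ratio of 1.77. The other 3 villus epi libraries, at 4.15 to 4.41, were all above villus EC, at 3.59 to 4.06, and the difference without replicate 2 was -0.15. Without that library the villus differences were 3.53 for Apob to Mttp, -2.90 for Apoa1 to Apob and 1.88 for Apoa1 to Apoa4. These values without the library were added after seeing the data and carry no test.

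**Figure D4:**
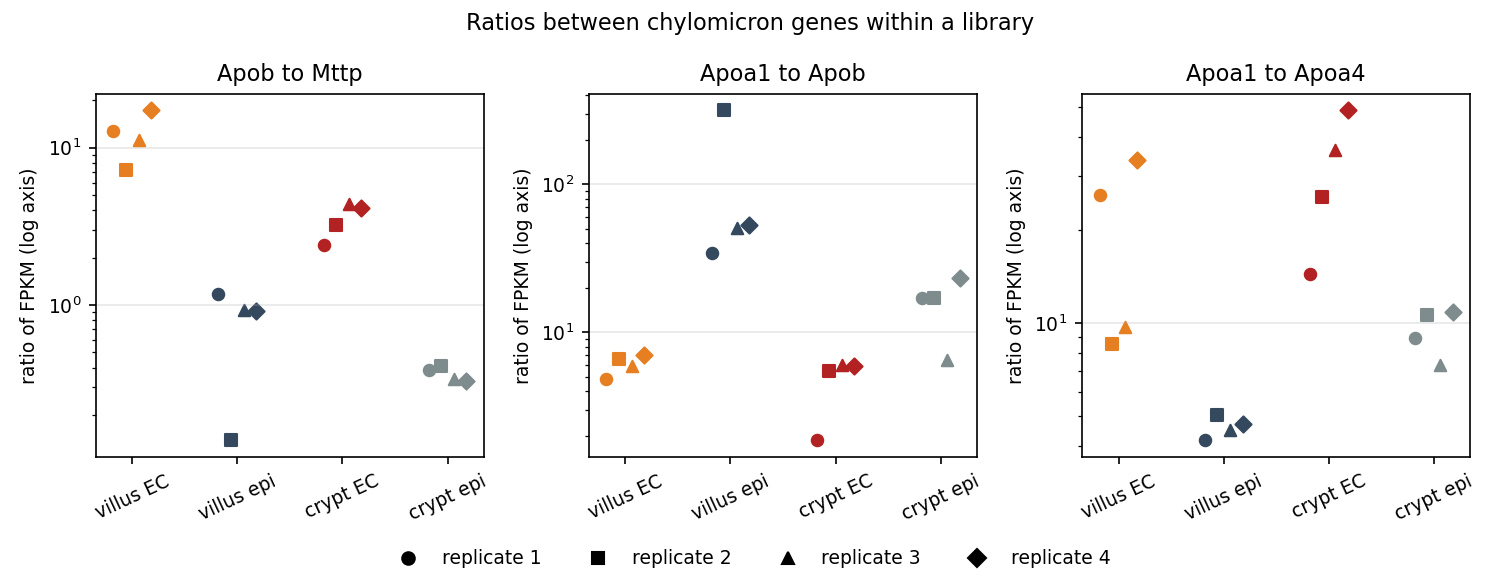
Ratios of Apob to Mttp, Apoa1 to Apob and Apoa1 to Apoa4 in each library, on a log axis, by group. Apob to Mttp is above 1 in all 8 EC libraries and highest in villus EC, up to 17.2, and is lowest in villus epi replicate 2, at 0.138.

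Apoa5, the fourth gene of the chromosome 9 cluster and a liver apolipoprotein that helps clear triglyceride, went the opposite way from its neighbours. Its promoter, shown because it sits in the cluster with the other direction of change, has a TATAAA at -56 to -51 (capitals) and none of the other motifs.
Apoa5 (chr9:46268383-46268632, plus strand): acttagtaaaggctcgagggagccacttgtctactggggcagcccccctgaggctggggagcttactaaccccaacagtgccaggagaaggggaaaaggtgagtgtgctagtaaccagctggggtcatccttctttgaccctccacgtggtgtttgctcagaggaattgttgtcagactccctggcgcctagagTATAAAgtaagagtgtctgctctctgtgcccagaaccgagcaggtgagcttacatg
Apoa5 was at 14.1, 14.1, 17.6 and 19.7 FPKM in villus EC against 0.897, 0.324, 1.94 and 0.247 in villus epi. Crypt EC had 0.909, 8.31, 7.41 and 8.55 FPKM, and crypt epi 0.0699, 0, 0 and 0.155. All EC libraries were above all epi libraries of their site, with crypt EC replicate 1 closest to them. On the log2 scale the difference was 3.30 ± 0.42 in the villus (adjusted p = 5.71e-06, limma) and 2.54 ± 0.42 in the crypt (0.000156), and 1.48 ± 0.42 between villus EC and crypt EC (0.0163).
Hepatocyte markers were checked because Apoa5 is best known from liver. Their sum was 37.4 to 47.8 FPKM in villus EC against 1.52 to 6.08 in villus epi and 105 to 132 in crypt EC against 6.86 to 15.5 in crypt epi, mostly Ttr, the transthyretin gene, which pancreatic endocrine cells also express and which made up 79.3% of the summed means in villus EC and 82.4% in crypt EC. Alb, the albumin gene and a defining hepatocyte marker, was higher in EC at both sites like Apoa5, at 6.29 ± 1.41 FPKM in villus EC against 0.189 ± 0.0334 in villus epi and 18.2 ± 4.41 in crypt EC against 0.162 ± 0.0792 in crypt epi (log2 fold changes 2.60 and 4.01, adjusted p = 7.15e-09 and 1.46e-10, limma). Fgb, a fibrinogen gene of hepatocytes, averaged 0.0592 FPKM or less in every group. Cyp2e1, also on the hepatocyte list, ran the other way in the crypt, averaging 1.88 FPKM in crypt EC against 4.39 in crypt epi. In the villus its means were 0.394 FPKM in EC and 0.484 in epi. The hepatocyte sum was higher in the crypt EC than in the villus EC libraries, the reverse of Apoa5, and its part in the Apoa5 values was not tested.

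Around the cluster on chromosome 9, the villus comparison of EC with epi called 3 of 7 neighbouring genes higher and 1 lower, where 40.6% of all tested genes were called higher and 21.6% lower. The crypt comparison called 0 either way, against 23.2% higher and 20% lower of all tested genes, and 1 higher and 2 lower without villus epi replicate 2, against 33.7% and 30.8%. The villus counts are near those shares. The lower one was Sidt2, a lysosomal transporter of nucleic acids, at -1.06 (adjusted p = 0.0437, limma), and with -1.67 without villus epi replicate 2. Around the cluster on chromosome 7, 2 of 6 neighbouring genes were called higher and 2 lower in villus EC. In crypt EC 2 were higher and 3 lower. The shares of all tested genes were again 40.6% higher and 21.6% lower in the villus, and 23.2% and 20% in the crypt. On chromosome 7, Apoe, the ligand for remnant uptake, ran from 5.90 to 10.9 FPKM in villus EC against 2.27 to 4.80 in villus epi, and from 5.67 to 8.55 in crypt EC against 8.80 to 12.0 in crypt epi. It was higher in villus EC by 1.24 (adjusted p = 0.000117, limma) and lower in crypt EC at -0.57 (0.0421), a call that other settings lost, with -0.09 when each library was scaled to the same total. Bcam, a laminin-binding adhesion molecule encoded nearby, was higher in EC at both sites, at 138 ± 14.1 FPKM in villus EC against 2.38 ± 1.17 in villus epi and 55.0 ± 12.8 in crypt EC against 3.17 ± 0.865 in crypt epi (log2 fold changes 5.42 and 3.74, adjusted p = 5.99e-11 and 8.78e-09). Apoa2, on chromosome 1 and a high-density lipoprotein protein in liver, was 0.443 ± 0.259 FPKM in villus EC against 33.8 ± 28.7 in villus epi (log2 fold change -4.05, adjusted p = 1.02e-05) and did not pass in the crypt (0.450).
Over the list of 12 tested apolipoprotein genes outside the 6, which holds Apoa5, Apoe and Apoa2, 4 were higher and 5 lower in villus EC, and 2 higher and 5 lower in crypt EC. The higher counts were below the shares of all tested genes, 40.6% in the villus and 23.2% in the crypt, and the lower ones above 21.6% and 20%. The medians were 0.06 and -0.52 on the log2 scale.

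Genes for Apob editing, lipidation and export from the endoplasmic reticulum were mostly lower in EC, with 17 of 26 tested lower and 5 higher in the villus and 16 lower and 1 higher in the crypt. Of all tested genes, 21.6% were lower and 40.6% higher in villus EC, and 20% lower and 23.2% higher in crypt EC. P4hb, the protein disulfide isomerase that forms a dimer with Mttp, averaged 392 ± 33.7 FPKM in villus EC against 1704 ± 874 in villus epi, with a log2 fold change of -1.84 (adjusted p = 0.000842, limma; -2.45 without villus epi replicate 2), and 364 ± 15.5 in crypt EC against 1024 ± 99.9 in crypt epi (-1.48, 0.00668). P4hb is also made by other secretory cells. Tm6sf2, needed to fill Apob particles with lipid, was 16.4 ± 6.42 FPKM in villus EC against 1600.5 ± 420 in villus epi (-6.54, 6.64e-12) and 26.3 ± 4.14 in crypt EC against 385 ± 38.7 in crypt epi (-3.83, 4.91e-09). Its pattern over the 4 groups, lowest in villus EC and second highest in crypt epi, was the order seen for Mttp.
Sar1b, the GTPase whose loss causes chylomicron retention disease in people, was lower in villus EC (-2.19, adjusted p = 1.29e-08). In the crypt it gave -0.53 (0.0155), which became 0.01 when each library was scaled to the same total. Sec23a, a coat protein of the same export vesicles, was lower at both sites (-3.46 and -1.76 in villus and crypt). Prap1, a triglyceride-binding protein of the gut lumen and endoplasmic reticulum, was lower as well (-3.94 and -2.28), and so was Pla2g12b, which supports lipoprotein lipidation (-2.35 and -1.24).

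Apobec1, the deaminase that edits Apob RNA to the short intestinal form, was set apart by its site pattern. It averaged 39.7 ± 5.19 FPKM in villus EC against 75.3 ± 16.4 in villus epi with crypt EC at 5.55 ± 0.712 and crypt epi at 19.3 ± 1.69 (SD, n = 4 each). It rose toward the villus in EC by 2.63 on the log2 scale (adjusted p = 9.67e-09, limma) and in epi by 1.89 (5.93e-08). EC against epi gave -0.90 in the villus (0.000123) and -1.64 in the crypt (4.83e-07), and the villus call was lost when each library was scaled to the same total (-0.27, 0.172).
A1cf, its RNA-binding cofactor, did not pass in either comparison, at 0.07 in the villus (0.827) and 0.29 in the crypt (0.388). Gene-level values do not show how much Apob RNA was edited.
Of the genes in this list that were higher in villus EC, Mia3, which helps bulky cargo leave the endoplasmic reticulum, averaged 107 ± 6.39 FPKM in villus EC against 21.0 ± 13.2 in villus epi (2.72, 0.000275, and 1.95 without villus epi replicate 2), and did not pass in the crypt, with 53.6 ± 11.1 in EC against 51.9 ± 7.41 in epi. Syncrip, an RNA-binding protein found with the editing complex, was higher in villus EC (2.21, 1.59e-09) and at -0.67 in the crypt (0.00101), a crypt call lost under the scaling to the same total (-0.14).

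Among 28 tested transcriptional regulators of lipid and enterocyte genes, villus EC had 14 below and 3 above villus epi, and crypt EC had 11 below and 1 above crypt epi. The shares of all tested genes were 21.6% below and 40.6% above in the villus, and 20% and 23.2% in the crypt. Hnf4a, a nuclear receptor known to drive many apolipoprotein genes, was present in EC at 317 ± 7.72 FPKM in the villus against 102 ± 55.8 in villus epi, and its crypt means were 290.1 ± 32.9 for EC and 322 ± 21.7 for epi (SD, n = 4 each). It was higher in villus EC by 1.96 ± 0.44 (adjusted p = 0.00115, limma), or 1.29 without villus epi replicate 2, and did not pass in the crypt (-0.15, 0.811). Hnf4g, its gut-enriched paralog, ran the other way, at 20.0 ± 1.91 FPKM in villus EC against 266 ± 79.8 in villus epi (-3.62, 3.23e-10) and 28.0 ± 3.62 in crypt EC against 118 ± 8.52 in crypt epi (-2.04, 5.14e-07).
Creb3l3, a membrane-bound factor that induces Apoa4 and Apoc2 in mouse liver, was 9.64 ± 3.89 FPKM in villus EC against 701 ± 126 in villus epi (-6.09, 5.82e-10) and 3.99 ± 1.94 in crypt EC against 59.3 ± 22.0 in crypt epi (-3.58, 5.89e-07). Creb3l3 also rose toward the villus in EC, by 1.11 (0.0263), and in epi, by 3.62 (3.11e-07). Nr1h3, the sterol-sensing liver X receptor alpha, was lower in EC at both sites (-3.08 in the villus and -1.64 in the crypt). Srebf2, which switches on cholesterol synthesis and uptake, was higher in villus EC (2.58, 4.85e-06) and did not pass in the crypt (-0.33, 0.453), where it was called lower without villus epi replicate 2 (0.00863). The regulators with lower levels in EC thus included Creb3l3, Hnf4g and Nr1h3, while Hnf4a was not among them at either site.

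**Figure D5:**
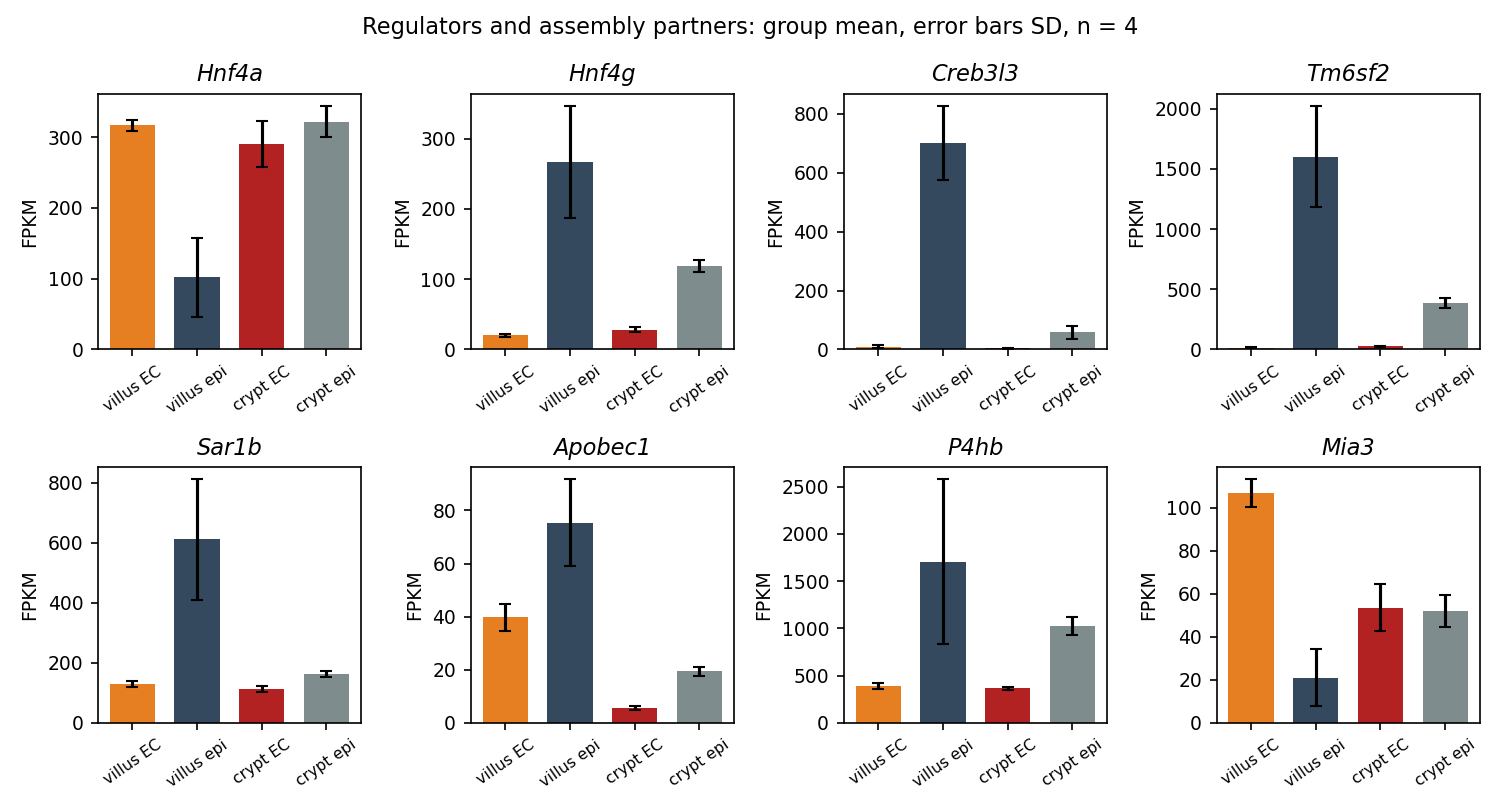
Mean FPKM with SD (n = 4 libraries) by group for Hnf4a, Hnf4g and Creb3l3 and for the assembly genes Tm6sf2, Sar1b, Apobec1, P4hb and Mia3. Hnf4a is 317 FPKM in villus EC against 102 in villus epi, whereas Hnf4g is 20.0 against 266 and Creb3l3 9.64 against 701.

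Genes that take up fatty acids and make triglyceride, the cargo of the particle, were lower in EC for 15 of 19 tested in the villus (2 higher) and 14 of 19 in the crypt (1 higher). Over all tested genes 21.6% were lower in villus EC (40.6% higher) and 20% in crypt EC (23.2% higher). The medians were -3.76 in the villus and -1.86 in the crypt. Fabp1 and Fabp2, the cytosolic fatty acid binding proteins of enterocytes, gave -6.93 (adjusted p = 1.46e-09, limma) and -6.49 (8.33e-09) in the villus and -4.07 (1.47e-06) and -3.67 (1.20e-05) in the crypt. Cd36, a fatty acid transporter, was 4.02 ± 0.815 FPKM in villus EC against 278 ± 48.6 in villus epi and 1.90 ± 0.144 in crypt EC against 9.87 ± 3.03 in crypt epi. Mogat2, the acyltransferase that starts triglyceride rebuilding in the gut, was 16.7 ± 3.95 FPKM in villus EC against 1070.0 ± 492 in villus epi and 24.2 ± 2.99 in crypt EC against 246 ± 51.5 in crypt epi. Gpat4, an acyltransferase of the other route to triglyceride, was higher in EC at both sites (2.54, 4.48e-11 in the villus and 1.38, 1.04e-07 in the crypt).

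Genes of cholesterol handling were called in both directions. Of 9 tested genes, EC had 5 below and 3 above epi in the villus, and 3 below and 3 above in the crypt. All tested genes had 21.6% below and 40.6% above in the villus, and 20% and 23.2% in the crypt. The crypt counts and the higher villus count are thus not far from the background. Soat2, which esterifies cholesterol for chylomicrons, was lower in EC (-4.09 in the villus, adjusted p = 1.33e-08, limma, and -1.60 in the crypt, 0.000552). Soat1, its widely expressed relative, was higher (2.96, 3.66e-10 and 0.64, 0.00431). Npc1l1, the intestinal cholesterol importer, was lower in the villus (-2.22, 0.00042) and did not pass in the crypt (-0.90, 0.118), where it was called without villus epi replicate 2 (3.13e-05). Scarb1, a receptor for high-density lipoprotein, was higher in EC at both sites, at 85.3 ± 12.0 FPKM in villus EC against 20.7 ± 11.0 in villus epi and 84.2 ± 18.2 in crypt EC against 7.43 ± 1.55 in crypt epi.
Among 15 tested receptors, lipases and their regulators that clear particles, 8 were higher and 4 lower in villus EC, while in the crypt 4 were higher and 5 lower in EC. Of all tested genes 40.6% were higher and 21.6% lower in villus EC, and 23.2% were higher and 20% lower in crypt EC. The higher counts and the lower villus count are thus not far from the background, and the lower crypt count is above it. Vldlr, a receptor for triglyceride-rich lipoproteins, was higher at both sites (3.70 and 1.35). Lipa, the lysosomal lipase that breaks down what is taken up, was lower in the villus (-3.75, 1.46e-09) and did not pass in the crypt (-0.29, 0.349).

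Lastly, profiles over the 16 libraries were compared as the root mean square difference of centred log2(FPKM + 1), where 0 means the same profile. Among all tested genes Mttp was closest to Mogat2, at 0.173, then to Slc6a20a at 0.200. The nearest gene to Apob was Slc25a22 at 0.452, to Apoa1 Pdzk1 at 0.562, to Apoa4 Sprr2a2 at 0.550, to Apoc3 Clca4a at 0.519 and to Apoc2 Cyp3a11 at 0.694. Among the 6, Apoa1 and Apoc3 were closest to each other at 0.721 and Apoa4 and Apob farthest apart at 2.62. The mean profile of the 6 was nearest to Cd36, at 0.390. For each of the 6 the nearest gene was not another member. Apoc2 was the one with a member, Apoc3 at 0.781, among its 4 nearest genes. The libraries share group differences, so such distances describe these 16 libraries alone.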

How the data were processed

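Bulk RNA-seq libraries of FACS-sorted cells were used, 16 in all, with groups and replicate numbers from the sample titles. The authors deposited 1 table of FPKM values per gene, and per the submitters' processing notes bcl2fastq 2.20, kallisto and sleuth were used with build mm10; neither the annotation release nor the library scaling is stated there. Read depth is therefore unknown, and no interval for counting error or detection floor is given. Since column totals differ between groups, 2 rescalings were tried as alternatives.

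Values were used as deposited, with a pseudocount of 1 before log2, so folds of low genes are understated. Genes with at least 1 FPKM in at least 4 libraries were tested (14089 of 20072). One limma 3.58.1 fit (R 4.3.3; eBayes with trend, two-sided) of 4 group means gave 5 contrasts, with Benjamini-Hochberg adjustment over all genes tested. Exact permutation tests were run on single genes and ratios with scipy 1.17.1 in Python 3.11.15, and figures were drawn with matplotlib 3.10.9. The method was tested on simulated data in which each gene had the same spread in every group. Of genes changed by 1 on the log2 scale it recovered 59% in the crypt and 56% in the villus comparison. For a change of 2 the shares were 91% and 88%. The simulation held no library like villus epi replicate 2, so it does not cover that case. Each SD is over the libraries of a group, and a fold change is the difference of 2 mean log2 values.

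The 6 genes and all gene lists were chosen with earlier results of these data known. The text names the 6 genes, a set of partners and regulators whatever their values, and up to 4 called genes of each list with the largest change; only a part of the last is named, and one gene of the lists is not reported here. Positions came from GENCODE for mm10, by Ensembl identifier (19944 of 20072 matched), and sequences from RefSeq GRCm38.p6; Apoc3 has no sequence here and that of Mttp was not used because its tabled start differs from the annotated one. Whether reads were counted by strand is not given, and Mttp overlaps Trmt10a on the opposite strand.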

Additional observations from a re-analysis of the deposited data

Results flagged for a closer look

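Single libraries stood apart from the other 3 of their group by Dixon's test on FPKM in 7 of 28 gene and group combinations (6 genes and Apoa5 in 4 groups). Chance gives about 1 in 20 for a single test. That rate does not apply to the count, because genes of one library are not independent and all 7 came from the libraries named next. Villus epi replicate 2 was low for Apoa4 at 3364 FPKM and for Mttp at 390.1. Crypt EC replicate 1 was low for Apoa1 at 115, Apoc3 at 83.3 and Apoa5 at 0.909, and its enterocyte marker sum was also the lowest of its group, at 419 FPKM against 526 to 591. That sum leans on Sis, at 38.7% of the crypt epi mean there against 121% to 130% in the other crypt EC libraries. Its markers were not shifted alike, as Alpi was lowest of the group at 1.77% and Dpp4 highest at 149%. Crypt epi replicate 3 was low for Apoa1 at 428 and Apoc3 at 83.9, with an enterocyte marker sum of 1128 FPKM against 2303 to 2464. The part of enterocyte content in these values was not tested.

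In villus epi replicate 2 the 6 genes were not shifted alike. Relative to the median of the other 3 libraries Apob was at 0.0421, Apoa4 at 0.255, Apoa1 at 0.271, Mttp at 0.300, Apoc3 at 0.635 and Apoc2 at 1.62. Of the 16 enterocyte markers 12 were lower and 4 higher there, from 0.0811 for Anpep to 5.45 for Slc15a1. Apob, the longest transcript of the 6, was lowest and the 2 shortest, Apoc2 and Apoc3, highest. The median log2 difference of this library over all genes did not follow transcript length in one direction, at 0.0070 up to 1000 bases, -0.22 from 1000 to 2000, -0.38 from 2000 to 4000, -0.11 from 4000 to 8000 and 0.37 above 8000. The part of transcript length in these values was not tested.

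The difference between EC and epi differed between sites for Apoc3 (interaction -5.23), Apoc2 (-4.48), Apoa4 (-3.78), Apoa1 (-3.48) and Mttp (-2.58).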

How the results depend on the processing

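The 6-gene counts were recomputed under 9 other settings (8 for the interaction) and with each library left out. The villus count of EC against epi was 5 to 6 over the libraries left out, the crypt count 3 to 4, villus against crypt in epi 6 to 6 and the interaction 5 to 6, and the other settings left these counts within 1.5 times. Villus against crypt in EC was the unstable count, with 3 called, 2 to 6 over the libraries left out, and 6 without villus epi replicate 2, with array weights or with only the groups compared in the fit. Deviations from the group mean of libraries with the same title number correlated at -0.27 to 0.17, with 4 of 24 pairs over 0.1. Those with the same library number correlated at -0.27 to 0.14, with 1 of 10 pairs over 0.1. Neither number was therefore used to pair libraries in the main fit, and these correlations cannot show which libraries share a mouse. A block for the title number took Apob in the villus to an adjusted p of 0.0586, and a block for the library number gave 0 called between sites in EC. Of the called values one direction changed, that of Sar1b in the crypt, at 0.0066 with each library scaled to the same total. That scaling moved the median of all genes to 0.80 in the villus and 0.51 in the crypt, from 0.33 and 0.05 as deposited. Over all tested genes the crypt count of 6088 became 9204 with only the groups compared and 9928 with array weights, and the count between sites in EC of 3736 became 6670 and 7255, and 1841 with the library-number block. Exact permutation gave 17 of 24 at its smallest p with each library scaled to the same total and cannot reach the threshold with 3 libraries in a group, so it was not run there. Unknown read depth limits every low value.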
